A study of Mus musculus with 6 samples.

Results

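The embryonic and adult globin genes of the mouse were followed in RNA of fetal liver haematopoietic stem cells (HSCs) that did or did not carry RISP, a subunit of mitochondrial complex III that the gene Uqcrfs1 encodes. There were 3 wild type (WT) and 3 knockout (KO) libraries, all of strain C57BL/6. Embryo age, the means of deletion, the cell sort and any pooling of embryos were not given in the sources used here. Since nothing says that replicates were separate embryos, the p-values cover the spread between libraries, which may be technical. Where 3 values are given for a group, they are in the order of replicates 1 to 3. The members were 10 gene symbols of the alpha and beta globin families and their partners, chosen by name. Of these, 8 had a row among the 23951 genes of the deposited RPKM table (reads per kilobase of gene, scaled to library size, and so a level per length). The other 2 members, Hbb-b2 among them, are not analysed here. Of the 8, 6 passed a filter of a mean of at least 0.5 RPKM over the 6 libraries and were tested, while Hbb-bh1 and Hba-a1 did not pass it.

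Haemoglobin carries oxygen in red cells as a tetramer of alpha-like and beta-like chains, each of which holds a haem. The mouse alpha-like genes lie in a cluster on chromosome 11 with the embryonic gene Hba-x (zeta) before the adult genes Hba-a1 and Hba-a2. The beta-like genes lie on chromosome 7, where Hbb-y and Hbb-bh1 are embryonic and Hbb-bs and Hbb-bt are adult. The embryonic genes are known for their use in primitive red cells from the yolk sac, and the adult genes for definitive red cells made in the fetal liver and later in bone marrow. Hbb-b1 names an adult beta gene of another beta globin haplotype than the one C57BL/6 carries.

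The 250 bases before the start of each gene are shown because they set adult and embryonic members side by side and show how alike the adult alpha pair is. They were taken from RefSeq on build GRCm38.p6, whereas the reads were placed on mm9, so their coordinates are not those of the authors' alignment. Windows were found for 6 of the 8 members, and none for Hbb-b1 and Hbb-bh1. Capitals mark every match, on either strand and with overlaps, of 5 short motifs. CACCC is bound by KLF1 and related factors, and the CCAAT box by several general factors. GATAA is part of sites of GATA factors. TATAA and the motif ATAAA, which can overlap it, occur in TATA boxes.
Hbb-bs (chr7:103827929-103828178, minus strand): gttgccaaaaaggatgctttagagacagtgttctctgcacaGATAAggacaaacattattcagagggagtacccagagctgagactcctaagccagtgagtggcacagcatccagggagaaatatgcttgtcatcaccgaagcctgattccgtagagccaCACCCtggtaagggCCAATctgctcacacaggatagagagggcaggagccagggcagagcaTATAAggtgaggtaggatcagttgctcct
Hbb-bt (chr7:103813924-103814173, minus strand): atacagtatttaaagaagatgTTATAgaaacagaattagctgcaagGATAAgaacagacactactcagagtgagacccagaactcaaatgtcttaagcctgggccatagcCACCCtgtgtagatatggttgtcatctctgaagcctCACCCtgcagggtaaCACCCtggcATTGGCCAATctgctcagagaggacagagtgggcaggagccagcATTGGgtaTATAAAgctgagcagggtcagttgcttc
Hba-a2 (chr11:32296242-32296491, plus strand): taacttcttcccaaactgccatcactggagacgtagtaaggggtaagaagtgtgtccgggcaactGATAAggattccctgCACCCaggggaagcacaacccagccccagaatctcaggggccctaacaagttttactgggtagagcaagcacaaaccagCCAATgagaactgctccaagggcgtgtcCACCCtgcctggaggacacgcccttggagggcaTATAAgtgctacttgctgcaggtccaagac
Hbb-y (chr7:103853208-103853457, minus strand): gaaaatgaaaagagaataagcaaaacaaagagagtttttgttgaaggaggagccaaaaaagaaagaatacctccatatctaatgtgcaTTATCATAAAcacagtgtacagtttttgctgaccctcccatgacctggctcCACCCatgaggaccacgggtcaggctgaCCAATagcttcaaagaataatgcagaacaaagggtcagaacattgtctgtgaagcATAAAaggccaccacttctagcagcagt
Hba-x (chr11:32276350-32276599, plus strand): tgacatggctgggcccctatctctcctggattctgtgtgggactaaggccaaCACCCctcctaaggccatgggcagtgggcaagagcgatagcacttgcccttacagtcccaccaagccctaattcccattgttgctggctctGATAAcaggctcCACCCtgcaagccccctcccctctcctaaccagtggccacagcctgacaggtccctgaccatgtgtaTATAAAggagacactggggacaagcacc

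Each of the 5 windows shown holds CACCC and GATAA. Of all 32851 RefSeq windows of this length, 52.0% held CACCC, and GATAA was in 22.6% of them. The motif CCAAT, in 33.8% of all windows, was in each window shown except that of Hba-x. TATAA, in 22.8% of all windows, was in each except that of Hbb-y, which holds ATAAA (37.3% of all windows) with its first base at position -28 from the start. Hbb-bt had 3 matches of CACCC, with first bases at positions -140, -104 and -89, and Hbb-bs had 1, at position -90. In an alignment of these 2 windows, 175 of 244 aligned bases were identical. The window of Hba-a1 shared an unbroken run of 247 bases with that of Hba-a2. The transcripts were also alike. In GENCODE transcripts of the same build, 439 of the 50-base windows were shared between Hba-a1 and Hba-a2, which was 86.9% of those of Hba-a2, and 381 between Hbb-bs and Hbb-bt, which was 65.8% of those of Hbb-bs. No 50-base window was shared between any other pair of the 7 members with a transcript, of which Hbb-b1 was not one. A match is only a description of these letters.

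The libraries held 10191354 to 14590844 counts. Uqcrfs1 stood at 71.0, 114 and 54.0 RPKM in WT and at 4.28, 3.30 and 2.95 RPKM in KO, so every library matched its label. The 5 adult members had a count of 0 in every library of the deposited count table despite RPKM values of up to 3330, so RPKM was their only measure and their read depth is unknown. The embryonic members had counts. For Hbb-y, 1 RPKM stood for 4.56 to 5.25 counts in the 4 libraries where it was above 0. All 12 genes of a stem cell marker list were measured, with a summed level of 691 to 803 RPKM in WT and 559 to 604 RPKM in KO. The sums of the groups did not overlap.

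Adult globin RNA was abundant in WT and lower in every KO library. The 8 members together took 1.19%, 0.931% and 0.805% of all RPKM in WT, and 0.128%, 0.232% and 0.259% in KO. Their summed level was 5847 ± 1004 RPKM in WT and 1154 ± 377 RPKM in KO (SD, n = 3 each). The lowest WT library, at 4891 RPKM, lay above the highest KO library, at 1479 RPKM. In these bulk libraries, fewer globin-making cells and less globin RNA per cell cannot be told apart.

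Hbb-bs, the more abundant adult beta gene of WT, had 3330, 2854 and 2295 RPKM in WT and 146, 215 and 93.9 RPKM in KO. The groups did not overlap, and the WT mean was 18.6 times the KO mean. Hbb-bs ranked 20th, 35th and 46th among all genes in WT and 455th, 289th and 724th in KO. It fell by 4.27 on the log2(RPKM + 1) scale, with a standard error (SE) of 0.29 (limma, Benjamini-Hochberg adjusted p = 0.00171). This scale understates changes of low genes. The call held whichever library was left out, with a highest adjusted p of 0.0143.

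Hbb-bt, the other adult beta gene of the strain, had a smaller fold change. It stood at 2281, 2154 and 1927 RPKM in WT and 488, 944 and 981 RPKM in KO. The groups did not overlap, and the fall was 1.46 on the log2(RPKM + 1) scale with an SE of 0.26 (limma, adjusted p = 0.0279). This call was lost without any 1 of the libraries other than KO replicate 1, with limma adjusted p-values of 0.0513 to 0.0985, while the value stayed between -1.64 and -1.14. With RPKM rescaled to the same total in each library the adjusted p was 0.0624 by limma.

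Hba-a2 carried the adult alpha signal. It had 909, 729 and 657 RPKM in WT and 55.0, 62.7 and 108 RPKM in KO. Every KO library lay far below every WT library, and the WT mean was 10.2 times the KO mean. Hba-a2 fell by 3.38 on the log2(RPKM + 1) scale (SE 0.25, limma, adjusted p = 0.00109), with a highest adjusted p of 0.00797 without any 1 library. Hba-a1, its near-identical partner, was listed at 0.0016 to 0.0025 RPKM in all 6 libraries. Levels of Hba-a1 and Hba-a2 are therefore those of the pair, as the deposited table assigned nearly all of the signal to 1 of them.

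Hbb-b1 varied without regard to the groups. It had 373, 20.2 and 0.0012 RPKM in WT and 48.5, 0.00094 and 234 RPKM in KO. Its log2 fold change was 0.19 with an SE of 3.31 (limma, adjusted p = 0.985), and its sign turned to -1.97 without the third WT library, to -0.38 without the first KO library and to -1.50 without the third KO library.

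Thus 3 of the 6 members tested, Hbb-bs, Hbb-bt and Hba-a2, passed the threshold as lower in KO, and 0 passed as higher by limma (0 also at an unadjusted p under 0.05). Among all 12464 genes tested on RPKM, 1.48% were lower in KO and 2.55% higher. Only 2 of the 3 passed without any 1 library other than KO replicate 1.

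**Figure D1:**
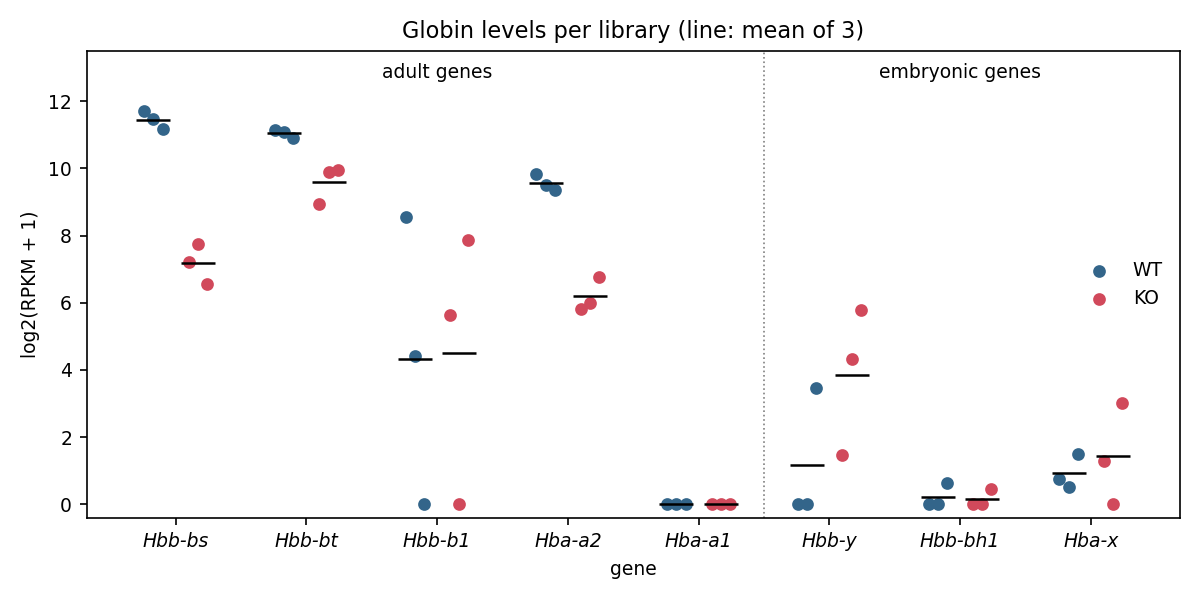
Level of each globin gene in each library, as log2(RPKM + 1), for WT (blue) and KO (red). Each point is a library and each line the mean of 3. WT and KO points are apart for Hbb-bs, Hbb-bt and Hba-a2 and overlap for Hbb-b1, Hbb-y, Hbb-bh1 and Hba-x.

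Because reads of near-identical copies cannot be assigned with certainty, the adult genes of each cluster were also summed and fitted as 1 feature beside all other genes. The adult beta-like sum of Hbb-bs, Hbb-bt and Hbb-b1 was 5983, 5029 and 4222 RPKM in WT and 683, 1159 and 1309 RPKM in KO. It fell by 2.31 on the log2(RPKM + 1) scale (SE 0.25, limma, adjusted p = 0.00609), and without any 1 library the highest adjusted p was 0.0309. The adult alpha-like sum of Hba-a1 and Hba-a2 fell by 3.38 (SE 0.25, limma, adjusted p = 0.00108), with a highest adjusted p of 0.00781. Both sums thus passed the threshold with the copies summed.

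The split itself differed between the groups. Hbb-bs took 55.7%, 56.8% and 54.4% of the adult beta-like sum in WT and 21.4%, 18.6% and 7.18% in KO. Hbb-bt took 38.1%, 42.8% and 45.6% in WT and 71.5%, 81.4% and 74.9% in KO. The level of Hbb-bt was 0.685 to 0.840 times that of Hbb-bs in WT and 3.33 to 10.4 times in KO, so the order of the pair turned. In WT the order by mean listed level was Hbb-bs, Hbb-bt, Hba-a2, Hbb-b1, and in KO it was Hbb-bt, Hbb-bs, Hbb-b1, Hba-a2. In KO the ranges of Hbb-bs, Hbb-b1 and Hba-a2 overlapped, and in WT the lowest Hbb-bs value (2295 RPKM) lay just above the highest of Hbb-bt (2281 RPKM). Hbb-b1 took 17.9% of the sum in KO replicate 3, its largest share, and 7.10% or less elsewhere. Whether the assignment of shared reads has a part in the turned order was not tested.

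**Figure D2:**
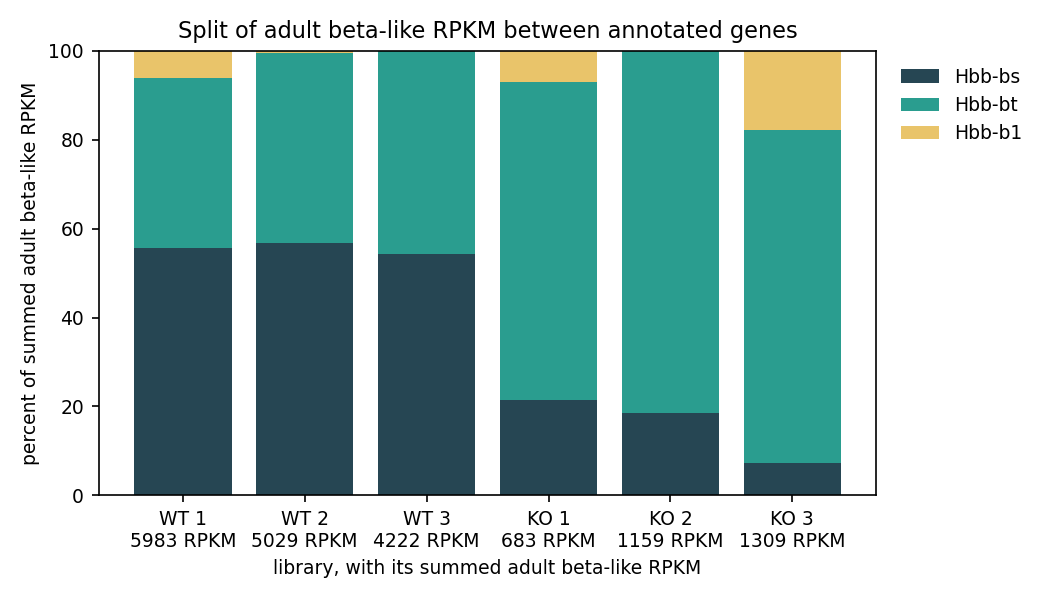
Share of the summed adult beta-like RPKM (percent) listed under Hbb-bs, Hbb-bt and Hbb-b1 in each library, with the sum under each bar. Hbb-bs takes 54.4% to 56.8% in the WT libraries and 7.18% to 21.4% in the KO libraries.

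Alpha-like RNA was lower relative to beta-like RNA in KO. The summed alpha-like level was 15.2%, 14.5% and 15.6% of the beta-like level in WT and 8.25%, 5.32% and 8.46% in KO. The log2 ratio was -2.73 ± 0.05 in WT and -3.80 ± 0.38 in KO (SD, n = 3 each), a difference of -1.07. The groups did not overlap, and the two-sided exact permutation test gave p = 0.1, the smallest that 3 libraries against 3 allow, so the comparison cannot reach 0.05. With adult members only the difference was -1.08. Both chains are needed in equal number in haemoglobin, but RPKM of genes whose reads match several places is no measure of that balance, so only the change between groups is described.

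Embryonic globins were lower than the adult sums in all libraries, and Hbb-y and Hba-x were highest in KO replicate 3. Hbb-y, the embryonic epsilon-like beta gene, was counted 0, 0 and 47 times in the WT libraries and 8, 100 and 260 times in the KO libraries. A count of 0 allows up to 0.294 and 0.274 CPM (counts scaled to library size) in WT replicates 1 and 2, from 3 counts and for counting error only, as reads from PCR are not independent molecules. In RPKM the WT values were 0, 0 and 10.1 and the KO values 1.76, 19.0 and 54.7. WT replicate 3 lay above KO replicate 1, so the groups overlapped. Within each library Hbb-y lay below adult Hba-a2, which had 55.0, 62.7 and 108 RPKM in KO. The mean of Hbb-y was 25.2 ± 27.0 RPKM in KO and 3.38 ± 5.86 RPKM in WT (SD, n = 3 each). The difference passed neither test, with a log2 fold change of 2.70 (SE 1.59, limma, adjusted p = 0.393) on RPKM and 2.89 (SE 2.03, edgeR, adjusted p = 0.465) on counts. By edgeR it passed without WT replicate 3 (log2 fold change 9.84, adjusted p = 0.00790), the only WT library with counts. Hbb-y was the only member tested on counts, so 0 of 1 were called there, where 11.4% of 12204 genes differed.

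The other embryonic members had few counts in most libraries. Hba-x, the zeta gene, was counted 3, 2 and 11 times in the WT libraries and 9, 0 and 40 times in the KO libraries, or 0.685, 0.426 and 1.83 RPKM in WT and 1.47, 0 and 7.17 RPKM in KO. The groups overlapped, and the log2 fold change of 0.52 (SE 0.70, limma, adjusted p = 0.704) turned to -0.27 without KO replicate 3. Hbb-bh1, an embryonic beta gene, had 3 counts in WT replicate 3, 2 in KO replicate 3 and 0 in the other libraries. The 2 libraries with Hbb-bh1 counts also had the highest Hba-x counts of their groups and the highest Hbb-y counts of their groups.

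The embryonic share of globin RNA was higher in KO, where adult RNA was low. The embryonic sum itself overlapped between the groups, at 0.685, 0.426 and 12.5 RPKM in WT and 3.22, 19.0 and 62.2 RPKM in KO. The adult sum did not overlap, so the share is no measure of the embryonic level alone. Embryonic members made up 0.00993%, 0.00739% and 0.256% of all globin RPKM in WT and 0.435%, 1.53% and 4.21% in KO. The groups did not overlap, although KO replicate 1 lay near WT replicate 3. The log2 ratio of embryonic to adult level rested on a few counts in WT replicates 1 and 2. It was -11.9 ± 2.84 in WT and -6.12 ± 1.67 in KO (SD, n = 3 each, exact permutation p = 0.1, the smallest possible), a difference of 5.76, or 4.87 with 1 RPKM added to each sum. Among beta-like genes the embryonic share was 0%, 0% and 0.253% in WT and 0.256%, 1.62% and 4.04% in KO. Among alpha-like genes it was 0.0753%, 0.0583% and 0.277% in WT and 2.60%, 0% and 6.22% in KO, so there the groups overlapped. With 1 RPKM added to each sum, the log2 ratio of embryonic to adult level was 4.99 higher in KO for beta-like genes, where the added 1 stands in for the 0 of WT replicates 1 and 2. For alpha-like genes the same difference was 3.90, but the added 1 exceeded the level of Hba-x in 3 of the 6 libraries and the adult sum alone differed by 3.38, so this value is no measure of the embryonic gene. Of the 6 ratios and sums compared in this way, each had an exact permutation p of 0.1, which is also the Benjamini-Hochberg adjusted value, and the alpha-like groups were apart only with the added 1.

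**Figure D3:**
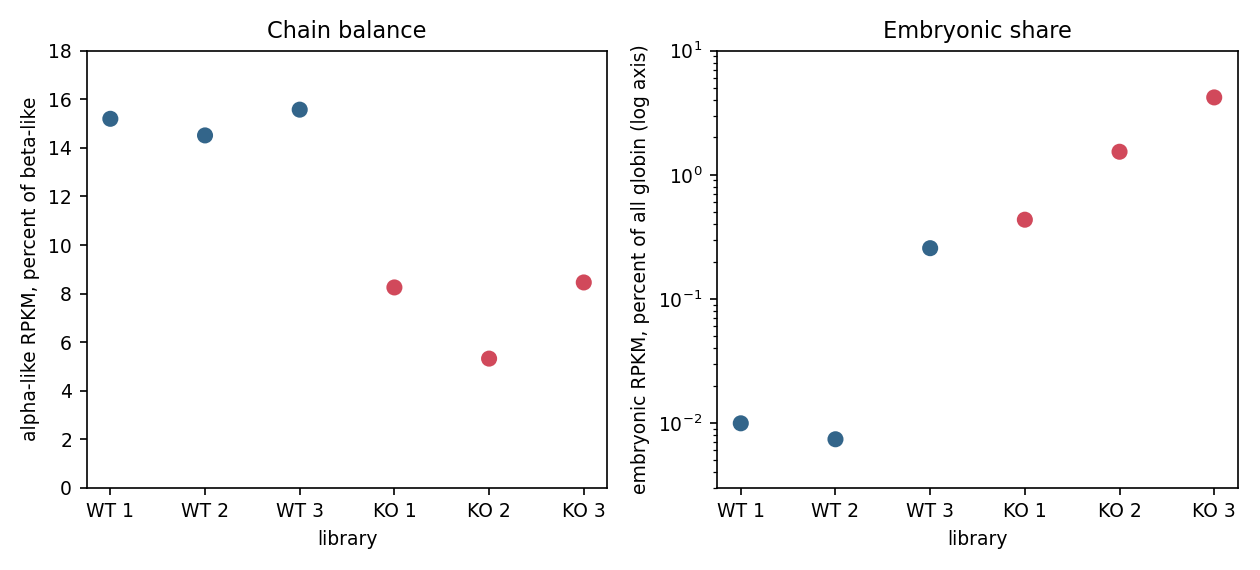
Left, summed alpha-like RPKM as percent of summed beta-like RPKM in each library, 14.5% to 15.6% in WT (blue) and 5.32% to 8.46% in KO (red). Right, embryonic members as percent of all globin RPKM on a log axis, at most 0.256% in WT and at least 0.435% in KO.

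Other genes of the red cell programme were also lower in KO. Of 33 erythroid partner genes tested on counts (haem synthesis, membrane skeleton, blood group and carrier genes), 17 were lower in KO and 0 higher by edgeR (23 and 0 at an unadjusted p under 0.05), where 4.99% of all genes tested were lower. Their median log2 fold change was -1.92, beside -0.024 over all genes tested. The count of lower genes was 14 to 17 without any 1 library. On RPKM, limma called 13 of 34 lower (median -1.12, beside -0.0024 over all genes), where 1.48% of all genes tested were lower. Limma called fewer with a library left out. It called 9 when WT replicate 2 or KO replicate 3 was left out, 7 for KO replicate 1, 6 for WT replicate 3, 4 for KO replicate 2 and 2 for WT replicate 1. Slc4a1, the band 3 anion exchanger, had 50.3, 23.5 and 20.5 RPKM in WT and 2.19, 3.26 and 3.81 RPKM in KO (limma, log2 fold change -2.90, SE 0.34, adjusted p = 0.00527). Alas2, which starts haem synthesis in red cells, had 34.1, 20.0 and 21.7 RPKM in WT and 2.80, 3.42 and 6.73 RPKM in KO (limma, log2 fold change -2.34, SE 0.31, adjusted p = 0.00883). Both were lower in every KO library than in any WT library. Trim10, a gene of terminal red cell development, and Blvrb, biliverdin reductase B, had log2 fold changes of -2.06 and -1.81 on RPKM (limma, adjusted p = 0.0125 and 0.0151). Without WT replicate 1 both calls were lost (limma, adjusted p = 0.0580 and 0.0587), as was that of Trim10 without KO replicate 2 (0.0550). On counts both passed (edgeR, adjusted p = 0.000902 and 0.00159). These calls held without any 1 library, with highest adjusted p-values of 0.00791 and 0.0195 by edgeR. The count call of Slc4a1 (edgeR, adjusted p = 0.00766) was lost without KO replicate 2 (0.0661). The log2 of summed globin level minus the mean log2(RPKM + 1) of the partner list was 8.94 ± 0.15 in WT and 7.75 ± 0.42 in KO (SD, n = 3 each), a difference of -1.19 with no overlap of the groups (exact permutation p = 0.1, the smallest possible). The globin sum had no added RPKM, whereas the 1 added to each partner lessens the fall of low partner genes. With 0.1 RPKM added to the partners in place of 1, the difference was -0.69, so its size depends on this choice.

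Genes that act on globin transcription showed no common direction. Of 12 activators and cofactors tested on counts by edgeR, 2 were lower and 6 higher, with a median log2 fold change of 0.24. Of all genes tested on counts, 4.99% were lower and 6.41% higher. On RPKM, limma called 1 of the 12 lower, Klf2, and 1 higher, Smarca4, beside 1.48% lower and 2.55% higher of all genes tested. Both limma calls depended on single libraries. With 1 library left out, their highest adjusted p-values were 0.135 and 0.114 by limma. On counts both calls held, with highest adjusted p-values of 0.0387 and 0.00533 by edgeR. Klf1, the erythroid factor that binds CACCC boxes of adult beta genes, had 11.1, 6.50 and 8.09 RPKM in WT and 3.99, 1.11 and 2.70 RPKM in KO. It fell by 1.72 on counts (SE 0.50, edgeR, adjusted p = 0.0285), a call lost on leaving out WT replicate 1 (edgeR, adjusted p = 0.141), KO replicate 2 (0.122) or KO replicate 3 (0.101), and it missed the threshold on RPKM (limma, adjusted p = 0.0579). Its relative Klf2, also used in embryonic beta globin expression, fell by 1.14 on counts (SE 0.27, edgeR, adjusted p = 0.00816). Smarca4, the BRG1 chromatin remodeller, rose by 0.70 on counts (SE 0.12, edgeR, adjusted p = 0.000623), and Zfpm1, the GATA1 partner FOG1, by 0.54 (SE 0.11, edgeR, adjusted p = 0.00209). Zfpm1 missed the threshold on RPKM (limma, log2 fold change 0.54, adjusted p = 0.0747). The number of higher activators on counts was 2 without KO replicate 3, 3 without WT replicate 1 or KO replicate 2, 4 without WT replicate 3, and 5 without WT replicate 2 or KO replicate 1.

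Among 15 genes that repress embryonic globins or belong to repressor complexes, 3 were higher and 0 lower by edgeR, with a median log2 fold change of 0.11. Of all genes tested on counts, 6.41% were higher. On RPKM, limma called 1 of the 15 higher, Chd4, and 0 lower, beside 2.55% higher and 1.48% lower of all genes tested. The limma call of Chd4 depended on single libraries, with a highest adjusted p of 0.0849 with 1 library left out. On counts its call held, with a highest adjusted p of 0.00272 by edgeR. Chd4, the remodelling subunit of the NuRD complex, had 79.7, 77.8 and 85.6 RPKM in WT and 128, 123 and 128 RPKM in KO, with no overlap. It rose by 0.56 on counts (SE 0.09, edgeR, adjusted p = 0.000285), and Ehmt2, the histone methyltransferase G9a, by 0.60 (SE 0.13, edgeR, adjusted p = 0.00340), although Ehmt2 missed the threshold on RPKM (limma, adjusted p = 0.0588). The third was Dnmt1, the maintenance DNA methyltransferase, named after its value was seen (log2 fold change 0.45, SE 0.10, edgeR, adjusted p = 0.00651). On RPKM Dnmt1 did not pass (limma, log2 fold change 0.17, adjusted p = 0.723), with 68.6, 86.9 and 79.7 RPKM in WT and 111, 107 and 57.5 RPKM in KO, where replicate 3 lay below every WT library. Kdm1a and Ehmt1 had log2 fold changes of 0.38 and 0.35 and did not pass (edgeR, adjusted p = 0.0690 and 0.0629). Neither Bcl11a nor Sox6 passed. Both silence embryonic beta globins and were chosen for that role with their values known. Bcl11a had a log2 fold change of -0.07 (SE 0.10, edgeR, adjusted p = 0.748) with 84.4 to 95.9 RPKM in WT and 73.5 to 86.4 RPKM in KO. Sox6 was low, at 0.825 to 1.80 RPKM in WT and 0.157 to 0.699 RPKM in KO, with a log2 fold change of -1.43 (SE 0.56, edgeR, adjusted p = 0.109).

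**Figure D4:**
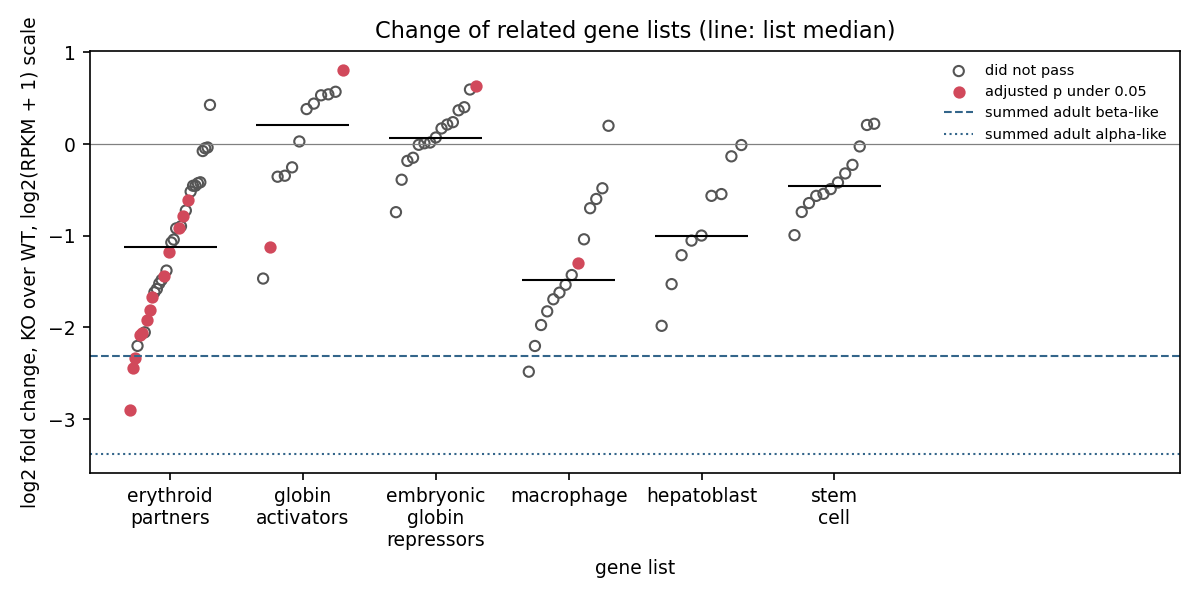
Log2 fold change of KO over WT (log2(RPKM + 1) scale, limma) for the tested genes of 6 lists, each point a gene, filled where the adjusted p is under 0.05, with the list median as a black line. The dashed and dotted lines mark the summed adult beta-like (-2.31) and alpha-like (-3.38) globins, which lie below the medians of all 6 lists on this scale, whereas the macrophage median on counts, -3.02, lies below the beta-like value.

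Markers of macrophages were lower in sum in every KO library than in any WT library, but only with Lyz2 counted. The sums of hepatoblast markers overlapped between the groups. The summed level of 16 macrophage markers was 272, 181 and 650 RPKM in WT and 149, 99.6 and 98.1 RPKM in KO, and that of 11 hepatoblast markers was 90.3, 51.0 and 78.0 RPKM in WT and 23.8, 23.7 and 57.4 RPKM in KO. Lyz2 was the largest single part of the macrophage sum in every library. It had 187, 123 and 197 RPKM in WT and 80.5, 59.3 and 61.3 RPKM in KO. Without Lyz2, the macrophage sum of WT replicate 2 lay below that of KO replicate 1. No marker was at 0 in all libraries. On RPKM, 1 of 14 macrophage markers, Lyz2, and 0 of 9 hepatoblast markers were lower by limma (2 of the 9, Ttr and Trf, at an unadjusted p under 0.05). On counts, 2 of 14 (Lyz2 and Clec4f, the latter named after its value was seen) and 2 of 10 (Ttr and Trf) were lower by edgeR. Of all genes tested, 1.48% were lower on RPKM and 4.99% on counts. The call of Lyz2 on RPKM was lost without WT replicate 1 (limma, adjusted p = 0.0580), KO replicate 2 (0.0664) or KO replicate 3 (0.0505). On counts, Lyz2 and Trf kept their calls without any 1 library, with highest adjusted p-values of 0.00161 and 0.0385 by edgeR. That of Ttr rose to 0.169 in the fits where it was tested. Ttr and Clec4f were at 0 RPKM in every KO library. The median log2 fold change of the macrophage markers was -1.48 on RPKM and -3.02 on counts, and -0.69 and -1.08 without WT replicate 3. The WT library with the most macrophage signal, WT replicate 3, had the lowest globin sum of its group. KO replicate 1, with the most in KO, also had the lowest of its group. The orders did not mirror each other throughout. WT replicate 2 had the least macrophage signal of WT, but WT replicate 1 had the highest globin sum (6893 RPKM, against 5758 RPKM in WT replicate 2). The part of these cells, or of red cell precursors in the sort, in the globin levels was not tested.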

How the data were processed

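RNA sequencing of 3 WT and 3 KO libraries was used. Per the labels' protocols, a stranded kit for low input turned total RNA into libraries. The authors deposited read counts per gene and RPKM values for the same 23951 genes. Per the submitters' processing notes, TopHat and Cufflinks were used on mm9. Their versions, the annotation, the counter, its strand setting and how it dealt with reads that match several genes were not given in the sources used here. The members, lists and tests were chosen with earlier results of these data known. On RPKM, limma 3.58.1 (R 4.3.3, trend and robust) was fitted to log2(RPKM + 1) for all genes with a mean of at least 0.5 RPKM. On counts, edgeR 4.0.16 was fitted (TMM, filterByExpr, robust quasi-likelihood). The models held the group alone. Adjustment was by Benjamini-Hochberg across all tested genes, with a threshold of 0.05. Both fits were tested on simulated data. Sums and ratios were compared per library with two-sided exact permutation tests. Genes were named by rule: every member, Uqcrfs1, at most 4 genes with the smallest limma p of each list, and the 5 genes most like the globin sum. Genes named outside it are marked in the text. Alternatives were other pseudocounts, filters, scalings and tools (DESeq2 1.42.0 and limma-voom), a replicate block and leaving out each library. Tests of the single stem cell markers are not reported here. Fitting summed adult genes and giving the split of adult beta-like RPKM were chosen after seeing the data.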

Additional observations from a re-analysis of the deposited data

How the results depend on the processing

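The 3 lower members kept their direction under all alternatives run, and Hbb-bs and Hba-a2 kept their calls. Hbb-bt lost its call with no filter (limma, adjusted p = 0.0637), RPKM rescaled to the same total (0.0624), a plain prior (0.0819) and the replicate block (0.0533), and without 5 of the 6 libraries. Both summed adult features kept their calls wherever fitted. The number of genes called on RPKM was 503, and moved to 166 with no filter, 116 with a plain prior, 233 with the replicate block and 112 to 330 without any 1 library. On counts it was 1391, and 712 to 1263 without any 1 library, with 712 without KO replicate 2 and 833 without KO replicate 3. With RPKM so rescaled, 448 genes were higher and 139 lower, against 318 and 185. Deviations of same-numbered WT and KO libraries from their group means correlated over genes at -0.0051, -0.011 and 0.017. No shared shift was thus seen, but this cannot exclude a pairing in the design, which was not given. With the replicate block Hbb-y passed on counts (edgeR, log2 fold change 4.2, adjusted p = 0.0188). Hbb-b1 reversed to -1.97, -0.38 and -1.50 without WT replicate 3, KO replicate 1 and KO replicate 3, and Hba-x to -0.27 without KO replicate 3. Over all left-out libraries they ranged from -1.97 to 2.44 and from -0.27 to 1.25. All 6 ratios and sums kept their sign. Erythroid partners lower on RPKM were 3 with no filter, 4 with a plain prior and 8 with the replicate block, against 13. The ratio with the member that is not analysed here was not run. Counts of 0 for adult members leave their depth unknown.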

Other observations

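Hbq1b, a theta-like gene of the alpha cluster, was counted 76, 8 and 0 times in the WT libraries and 0 times in every KO library, or 12.5, 1.28 and 0 RPKM in WT. It did not pass on RPKM (limma, log2 fold change -1.65, SE 0.84, adjusted p = 0.291). A count of 0 allows up to 0.206 to 0.250 CPM in the KO libraries. Of the other members of the globin family looked at, Hbb-bh2, Hbq1a, the myoglobin gene Mb and the neuroglobin gene Ngb were listed at 0 in all 6 libraries, and the cytoglobin gene Cygb at 0.0903 RPKM in WT replicate 3 and 0 elsewhere.

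The 5 genes whose log2(RPKM + 1) was most like the log2 of summed globin RPKM over the 6 libraries, among 11583 genes with a mean of at least 1 RPKM, were Rnf167, Zyx, Tmem98, Hist1h2bh and Dpm2, with Pearson's r of 0.995, 0.993, 0.992, 0.986 and 0.986. The 6 libraries form 2 separate groups, so these values are a description only. Tmem98 encodes a transmembrane protein, Hist1h2bh is a histone gene, and Dpm2 is a subunit of dolichol-phosphate mannose synthase. In the order named, the 5 had log2 fold changes of -0.71, -0.45, -1.46, -0.74 and -0.95 on RPKM. They were picked for likeness to a sum that separates the groups. A lower level in KO therefore follows from the choice and is no separate result. None of the 34 erythroid partner genes was among these 5. Partner genes with a mean under 1 RPKM, such as Car1, could not appear there. With only 5 places among 11583 genes, nothing is drawn from this.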
